A study of Mus musculus with 10 samples.

Results

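The miRNA profile of unstimulated mIMCD-3 cells was described from 5 vehicle arrays out of 10 arrays in the series. This established line was derived from mouse inner medullary collecting duct. The arrays were chosen by their label: the cells had received ethanol, the solvent in which aldosterone was given to the other arrays, which were not analysed here. Per the labels' protocols, 70000 cells per transwell filter were grown in DMEM-F12 with 10% serum, then kept 24 h without hormone before vehicle was added, and the RNA was extracted with TRIzol. From each sample 500 ng of total RNA was labelled with the dye Hy5 and hybridized to an array of 1040 probes with mouse miRNA names, of which 12 name several miRNAs at once. The cells are a single immortalized line, the time spent in vehicle is not given in the sources used here, and the labels do not tell whether each of the 5 samples was a culture of its own. The spread among them, and any p-value here, may thus be purely technical.

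A miRNA is a short RNA cut from a hairpin precursor, whose 2 arms can each give a mature strand. It guides a protein complex to messenger RNAs that pair with its seed, the bases from position 2 to 8, and lowers their translation and stability. Strands with the same seed share many predicted targets, and the array names the strand thought to be minor with an asterisk. The collecting duct is the last part of the nephron, where its epithelium adjusts the reabsorption of sodium and water under aldosterone and vasopressin. The miR-200 family maintains the epithelial state by repressing the ZEB factors, and the miR-30 family is abundant in kidney epithelium.

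The mature sequences are shown for the probes whose signal the results turn on, first for seeds that several bright probes shared and then for bright probes with a seed of their own. They are the RefSeq entries of the mouse assembly GRCm38.p6, written 5′ to 3′ with the seed in capitals. A RefSeq sequence was matched for 35 of 47 bright probes, and 15 of these fell into 5 groups with a common seed.
let-7a: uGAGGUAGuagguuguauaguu
let-7c: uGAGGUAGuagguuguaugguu
let-7d: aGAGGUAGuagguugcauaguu
let-7b: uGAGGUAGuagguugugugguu
let-7f: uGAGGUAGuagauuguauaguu
miR-93: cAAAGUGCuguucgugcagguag
miR-17: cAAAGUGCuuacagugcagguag
miR-106b: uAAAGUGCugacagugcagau
miR-20b: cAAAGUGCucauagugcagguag
miR-16: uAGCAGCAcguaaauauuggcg
miR-15b: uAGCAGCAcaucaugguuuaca
miR-103: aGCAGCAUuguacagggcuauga
miR-107: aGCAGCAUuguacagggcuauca
miR-30c: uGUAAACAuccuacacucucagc
miR-30a: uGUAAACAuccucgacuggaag
miR-21: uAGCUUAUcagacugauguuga
miR-690: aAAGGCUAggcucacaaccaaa
miR-2137: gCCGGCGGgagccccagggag
miR-2861: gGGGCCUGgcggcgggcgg
miR-762: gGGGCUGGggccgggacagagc
miR-149*: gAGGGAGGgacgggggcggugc
Some members of a seed group, such as let-7a and let-7c, differ in few letters, and a probe for one can also capture another. Near-identical members such as miR-103 and miR-107 thus cannot be told apart with certainty. Others, such as miR-16 and miR-15b, differ in more letters outside the seed. In 4 of these bright strands, miR-2137, miR-2861, miR-762 and miR-149*, G and C made up 81.8% to 94.7% of the bases, against 36.4% in miR-21 and let-7a and 45.5% in miR-690.

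Each array held 3136 spots, with 2 spots per miRNA probe and 778 blank spots. Detection on an array required that both spots of a probe carried the authors' positive call. Its intensity is the raw value minus the authors' background, averaged over the 2 spots, and for comparison between arrays it was scaled so that the median of the 247 probes detected on all 5 arrays was 25. Before scaling, this median was 33.1, 9.42, 20.3, 11.1 and 13.8 intensity units in replicates 1 to 5, a 3.52-fold range. The 2 spike controls, synthetic RNAs added to every sample, ranged 1.21-fold, with 2395 to 2898 units, and 1.34-fold, with 2143 to 2865 units. Duplicate spots differed with a median CV of 9.20% to 11.9%. No 2 arrays held identical values, and over the 247 probes log2 intensities of the array pairs correlated, across probes, at r of 0.906 (replicates 1 and 2) to 0.987 (replicates 3 and 5). A probe's signal depends on how well it hybridizes as well as on the amount of its miRNA, so the order of signals given here is an order of brightness and not of abundance. With 5 arrays, precision is limited by their number.

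Of the 1040 mouse probes, 247 (23.8%) passed on all 5 arrays, 467 failed on every array and 326 passed on 1 to 4. Single arrays gave 495, 275, 406, 347 and 436 detected probes in replicates 1 to 5. Replicate 2, the array with the dimmest signals before scaling, alone lacked 53 of the 67 probes that were detected on exactly 4 arrays. Replicate 1, the brightest, alone showed 58 of the 125 probes detected on exactly 1 array. The other arrays did not follow brightness throughout: replicate 3 was brighter than replicate 5 before scaling but had fewer detected probes. Of 24 negative control spots per array, 8 reached the lowest intensity called positive in replicate 1. In replicates 2 to 5 it was 4, 0, 2 and 1. Some of the probes detected on replicate 1 alone may thus not be miRNA signal.

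**Figure D1:**
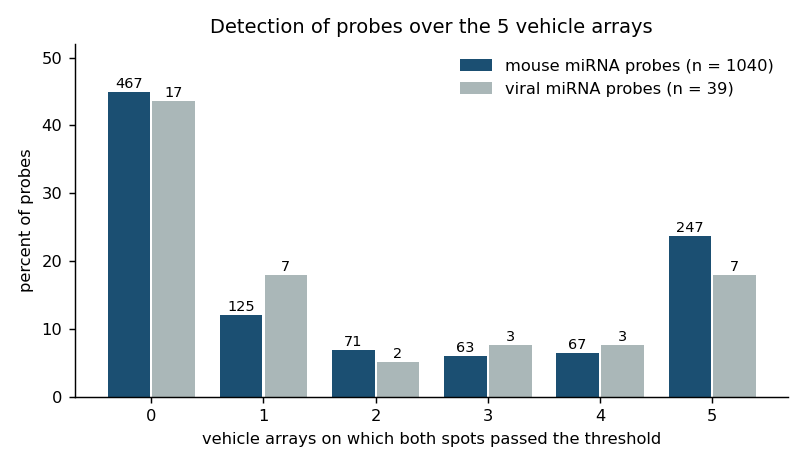
Percent of mouse miRNA probes (dark bars) and viral miRNA probes (grey bars) by the number of vehicle arrays, from 0 to 5, on which both spots passed the authors' threshold; the numbers over the bars count probes. The share detected on all 5 arrays is 23.8% for 1040 mouse probes and 17.9% for 39 viral probes.

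The array also carries 39 probes for miRNAs of mouse herpesviruses, which give the background measured in the same way. On all 5 arrays 247 of 1040 mouse probes were detected, against 7 of 39 viral probes (17.9%). The share detected on none was 44.9% of mouse and 43.6% of viral probes, and on 1 to 4 arrays 31.3% and 38.5%. Single arrays gave 18, 8, 10, 16 and 15 detected viral probes in replicates 1 to 5. Detection on a single array, or on 1 to 4, thus does not by itself set a mouse probe apart from this background. The 7 viral probes had geometric means of 6.42 to 108 scaled units with a median of 11.8, and none was bright. Only 58 of the 247 mouse probes had a geometric mean above that of the brightest viral probe. A mouse probe detected on every array with a geometric mean up to 108 units thus lies in a range that probes for viral miRNAs also reach.

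The probes detected on all 5 arrays were divided by signal. In 47 probes, called bright, the scaled intensity was at least 100 on every array. Another 77, called intermediate, had a geometric mean of at least 25, and the remaining 123, called dim, lay below it. Because the bright limit applies to the lowest array, it leaves out strong probes that vary. Intermediate geometric means reached 176 units, in miR-19b, above the 130 units of the dimmest bright probe, miR-711. The bright probes held 84.6% to 89.5% of the summed signal of the 247 probes, and the 10 brightest held 53.3% to 71.1%. Just inside the limit lay miR-22, miR-3090* and miR-106b, whose lowest arrays read 101, 103 and 103. Just outside it lay let-7i, miR-3072* and miR-27a, whose lowest arrays read 98.3, 98.1 and 97.3.

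The brightest probe, miR-2145, read 11508, 26893, 19658, 21171 and 20979 scaled units in replicates 1 to 5 and made up 22.1% to 43.0% of the summed signal. The probes miR-1937b (2816, 2501, 4051, 4827 and 4283 units) and miR-1937a (2588, 2534, 3851, 4377 and 4268 units) followed one pattern, low in replicates 1 and 2 and high in the other three. The probe for miR-720 read 702, 404, 1051, 1152 and 1039 units, low in the same arrays. The low readings in replicate 1 hold on the scaled values only. Before scaling, miR-1937b, miR-1937a and miR-720 were highest in replicate 1, with 3730, 3428 and 930 intensity units. All were lowest in replicate 2, with 942, 955 and 152. These names were given to short reads that were later assigned to other small RNAs, a ribosomal RNA fragment for miR-2145 and transfer RNA fragments for miR-720 and the miR-1937 group, so their signals need not come from miRNAs.

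The probe for miR-690 was the steadiest of the bright probes on this scale. It read 3770, 4385, 4654, 3837 and 4133 units (mean 4156 ± 371, SD, n = 5), a spread of 0.13 on the log2 scale. In contrast, miR-709 read 1233, 3462, 1602, 1689 and 1863 units, and miR-1195 read 552, 1717, 707, 834 and 989 units. On this scale both were highest in replicate 2 and lowest in replicate 1. Before scaling, both were highest in replicate 1, with 1633 and 732 intensity units, and lowest in replicate 4, with 752 and 371. Of the G and C-rich strands printed above, miR-2137 read 1499, 1279, 1702, 2016 and 1507 units and miR-762 read 504, 782, 601, 867 and 576 units, each highest in replicate 4. miR-2861 read 798, 882, 796, 1290 and 864 units and was highest there too, while miR-149* read 314, 599, 601, 517 and 417 units and was highest in replicate 3. Before scaling, miR-2137, miR-762 and miR-2861 were highest in replicate 1, with 1985, 667 and 1057 intensity units. The unscaled miR-149* stayed highest in replicate 3, with 489.

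**Figure D2:**
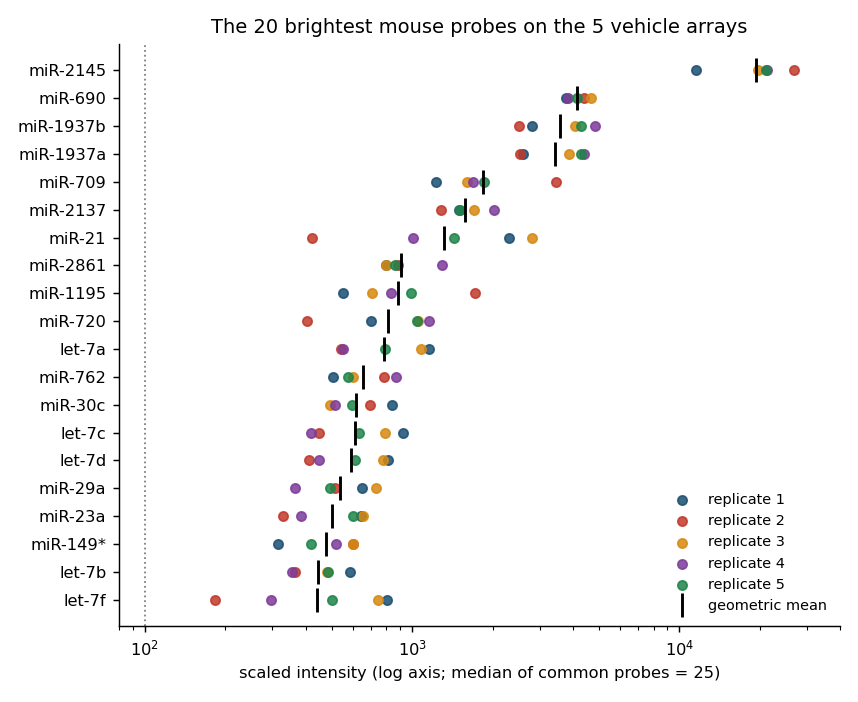
Scaled intensity (log axis, median of the common probes set to 25) of the 20 brightest mouse probes, ordered by geometric mean; coloured points are the 5 vehicle replicates, the bar is the geometric mean and the dotted line is the limit of 100. The points of miR-690 lie within 3770 to 4654, while those of miR-21 run from 423 in replicate 2 to 2800 in replicate 3.

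Among miRNAs with well-described roles, miR-21 was the brightest probe and the most variable of all 47. A miRNA raised in growing and injured epithelium, it read 2295, 423, 2800, 1003 and 1437 units, high in replicates 1 and 3 and lowest in replicate 2, a 6.63-fold range. The spread was also seen before scaling, with 3040 intensity units in replicate 1 against 159 in replicate 2. The 2 spots of each array read alike, 2587 and 2003 scaled units in replicate 1 and 463 and 382 in replicate 2.

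The let-7 family, which restrains growth and marks differentiated cells, was the largest group of bright probes with 1 seed. Of its 20 probes, 9 were detected on all 5 arrays, against 23.8% of all mouse probes, 7 on 1 to 4 and 4 on none, and 5 were bright. let-7a read 1160, 543, 1080, 549 and 794 units, let-7c read 926, 447, 790, 419 and 635, and let-7d read 813, 412, 775, 450 and 612. All of these were high in replicates 1 and 3 and low in replicates 2 and 4. let-7f had a wider spread, 807, 183, 745, 297 and 502 units, and let-7b a narrower one, 585, 366, 480, 355 and 483 units, each again lower in replicates 2 and 4 than elsewhere. Below the bright limit, let-7i, let-7e, let-7g and miR-98 had geometric means of 148, 114, 68.1 and 15.5 units, and every one of the other 11 probes of the family is a minor strand.

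The growth-linked list holds the miR-17, miR-106a and miR-25 clusters, whose miRNAs promote passage through the cell cycle, and miR-92b from outside them. It had 16 of 30 probes (53.3%) detected on all 5 arrays, against 23.8% of all mouse probes, 10 on 1 to 4 and 4 on none. The 6 bright ones were miR-92b*, miR-93, miR-17, miR-25, miR-106b and miR-20b, of which miR-93, miR-17, miR-106b and miR-20b share the seed AAAGUGC. miR-93 read 365, 271, 340, 191 and 225 units and miR-17 read 338, 176, 412, 185 and 262 units. miR-106b read 456, 132, 275, 103 and 200 units, but its 2 spots in replicate 4 read 164 and 42.4. miR-363-3p was detected on none of the 5 arrays.

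miR-16 and miR-15b, which repress cyclins and share the seed AGCAGCA, were bright but ran differently across the arrays. miR-16 read 705, 215, 510, 330 and 408 scaled units, highest in replicate 1, whereas miR-15b ran from 316 units in replicate 2 to 483 units in replicate 5. Before scaling, both were highest in replicate 1 and lowest in replicate 2. miR-103 (283, 220, 277, 197 and 242 units) and miR-107 (246, 204, 230, 175 and 218 units), which act on lipid and insulin signalling, ran in the same order over the arrays, highest in replicate 1 and lowest in replicate 4. Of the 20 probes of this group 7 (35%) were detected on all 5 arrays, against 23.8% of all mouse probes, 11 on 1 to 4 and 2, miR-497 and miR-195*, on none.

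In the miR-23, miR-24 and miR-27 group, transcribed as 2 clusters of paralogous hairpins, 6 of 11 probes were detected on all 5 arrays, 4 on 1 to 4 and 1, miR-23b*, on none. The share on all 5 was 54.5%, against 23.8% of all mouse probes. miR-23a read 643, 330, 656, 384 and 601 units and miR-23b read 489, 330, 459, 304 and 441 units. Both were lower in replicates 2 and 4 than in the other three, but the 2 spots of miR-23a in replicate 2 read 200 and 460. miR-24 read 281, 196, 203, 212 and 272 units, but its 2 spots read 258 and 134 in replicate 2 and 256 and 149 in replicate 3.

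Of the 33 probes for miRNAs of kidney tubule and collecting duct epithelium, 15 were detected on all 5 arrays, 6 on 1 to 4 and 12 on none, where 23.8% of all mouse probes were detected on all 5 and 44.9% on none. The bright ones were 3 of the miR-30 family and miR-10a, a regulator encoded in the Hox gene clusters. miR-30c read 839, 693, 492, 514 and 598 units, miR-30a read 827, 382, 259, 353 and 349 units, and miR-30d read 504, 278, 214, 205 and 242 units. All 3 were highest in replicate 1. miR-10a read 672, 291, 429, 282 and 374 units. Of the proximal tubule miRNAs, miR-194 was dim at a geometric mean of 8.68 units, miR-192 was detected on 4 arrays, and miR-215 on none. miR-802, a miRNA of kidney and liver that regulates potassium secretion in the collecting duct, was detected on none, with -0.73, -0.45, 0.72, -0.19 and 0.75 intensity units above background before scaling.

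None of the 20 probes of the epithelial miR-200 and miR-183 families was bright, while 7 were detected on all 5 arrays, 4 on 1 to 4 and 9 on none. The share on all 5 was 35%, where 23.8% of all mouse probes were detected on all 5 and 44.9% on none. miR-200b read 213, 55.0, 105, 78.4 and 102 units and miR-200a read 220 units in replicate 1 and 65.8 to 81.5 units on the other arrays, so that each was highest in replicate 1. miR-429, which lies in the same hairpin cluster, was also highest in replicate 1, with 77.7 units, and lowest in replicate 2, with 9.47 units, and its other arrays lay between. The other members of the family, encoded in a second cluster, were not seen in the same way. miR-141 was detected on none, with 0.40, 0.83, 0.63, 0.84 and 1.01 units above background before scaling, and miR-200c was detected on 1 array. In the sensory-organ cluster miR-182 read 169, 85.2, 112, 90.9 and 105 units and miR-96 read 180, 52.9, 101, 80.6 and 90.7 units, while miR-183 was dim at a geometric mean of 20.8 units. miR-205, a miRNA of stratified epithelium, was detected on no array.

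Among the 29 probes for miRNAs of injury, stress and fibrosis, 7 were detected on all 5 arrays, 15 on 1 to 4 and 7 on none. The share on all 5 is close to the 23.8% of all mouse probes. Beside miR-21, miR-29a was bright, with 651, 516, 734, 364 and 494 units. miR-29b was intermediate and varied more, with 422, 42.8, 163, 84.5 and 153 units and a log2 SD of 1.23. Its duplicate spots also differed widely, with a spread of 0.66 on the log2 scale. The miR-29 family represses collagens. miR-34a, a target of p53, had a geometric mean of 36.3 units. The hypoxia-induced miR-210 read 96.2 units in replicate 1, 52.6 in replicate 4, 22.5 in replicate 5 and 14.5 in replicate 2, and was lowest in replicate 3, which is not the order of the let-7 family. Its log2 SD of 1.27 was the highest of the 247 probes. miR-34c, miR-132* and miR-155* were among those detected on none.

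In the miR-99, miR-100 and miR-125 group 6 of 11 probes passed on all 5 arrays and 3 on none, with none bright and the highest geometric mean, 66.9 units, for miR-99b. Of the 6 probes for miR-221, miR-222 and miR-31, 4 were detected on all 5 arrays, 1 on 2 arrays and 1, miR-221*, on none. The shares on all 5 were 54.5% and 66.7% in these groups, against 23.8% of all mouse probes. miR-31 read 308, 285, 221, 189 and 218 units and was the only bright one. Of 44 probes for broadly expressed miRNAs, 23 (52.3%) were detected on all 5 arrays, 10 on 1 to 4 and 11 on none. The bright ones were miR-130a (379, 196, 255, 195 and 247 units), miR-26a (284, 114, 212, 161 and 177 units) and miR-22. The value of miR-22 in replicate 1, 101 units, was the mean of 2 spots that read 18.4 and 185, so its place among the bright probes rests on 1 spot there. miR-101a was detected on none.

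**Figure D3:**
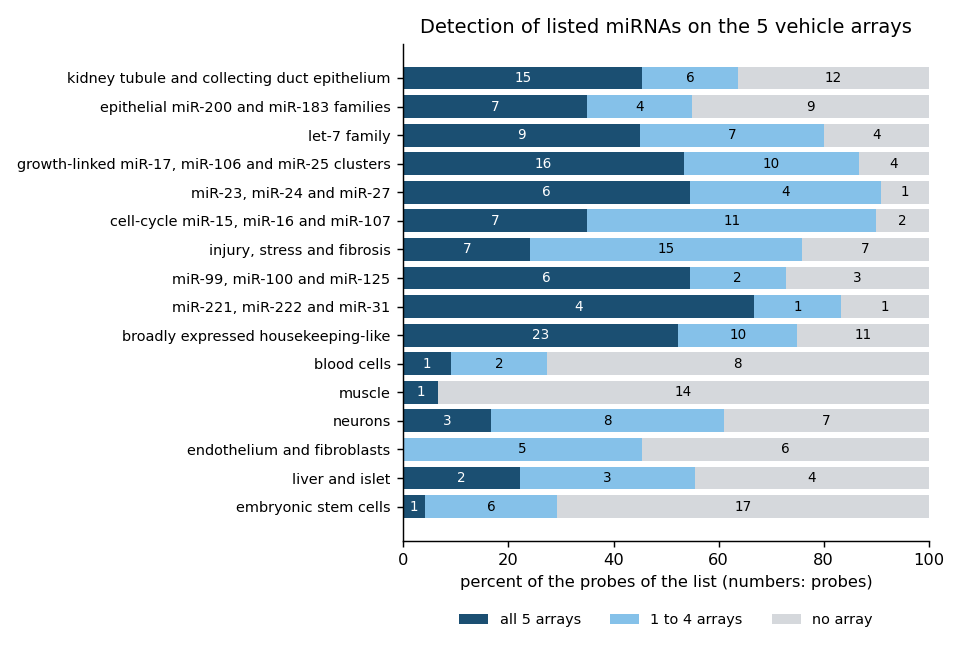
Percent of the probes of each list of related miRNAs that were detected on all 5 vehicle arrays (dark), on 1 to 4 (light blue) and on none (grey); the numbers count probes. The 10 upper lists hold miRNAs of kidney, epithelium, growth and stress, and the 6 lower ones hold markers of other cell types, where 1 of 15 muscle probes and none of 11 endothelial and fibroblast probes were detected on all 5 arrays.

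None of the probes for markers of other cell types was bright, against 47 of all 1040 mouse probes. Over all mouse probes 44.9% were detected on none, a share that the muscle, blood and stem cell lists exceeded. The endothelium and fibroblast (6 of 11), neuronal (7 of 18) and liver and islet (4 of 9) lists lay close to it for so few probes. Of 11 probes for blood cells 8 were detected on none, including miR-142-3p, miR-223 and miR-451, and only miR-486* was detected on all 5 arrays, at a geometric mean of 31.7 units. miR-451, a red cell miRNA, gave 0.40, 1.88, 1.28, 0.89 and -0.23 units above background before scaling. Of 15 muscle probes 14 were detected on none, with miR-1 at -0.90, -1.16, 0.09, -0.10 and -0.73 units, while miR-206 was dim at a geometric mean of 8.75 scaled units. Of 18 neuronal probes 7 were detected on none, 8 on 1 to 4 arrays, and miR-128 with both of its minor strands was detected on all 5. miR-124, which defines neurons, gave -1.02, 0.02, -0.46, -0.06 and -0.14 units before scaling.

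Of 11 probes for endothelium and fibroblasts 6 were detected on none, among them miR-143 and miR-145, and 5 on 1 to 4 arrays, with the endothelial miR-126-3p on 4. Of 9 liver and islet probes 4 were detected on none, with miR-122, the main miRNA of hepatocytes, at 1.03, -0.24, 0.18, 0.44 and 0.94 units before scaling. miR-7a and miR-375* were detected on all 5 arrays at geometric means of 25.9 and 16.8 scaled units, although miR-375 itself was detected on none. Of 24 embryonic stem cell probes 17 were detected on none, 6 on 1 to 4, and 1, miR-290-5p, on all 5 at a geometric mean of 6.68 units. The levels of the markers detected on all 5 arrays lie within the range of the viral probes given above. The same holds for the probes of the miR-99, miR-100 and miR-125 group detected on all 5 arrays. It also holds for those of the miR-200 and miR-183 families, except miR-182 with a geometric mean of 109 units.

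Differences between the arrays were tested for each of the 247 probes with limma's F-test of the array against the spread of the duplicate spots. This test compares these RNA samples and hybridizations with each other and no condition. At a Benjamini-Hochberg adjusted p under 0.05, 156 of 247 probes (63.2%) differed between the 5 arrays, and 171 did at an unadjusted p under 0.05. Of the bright probes 41 of 47 differed, of the intermediate ones 69 of 77 and of the dim ones 46 of 123. The dim probes had a median log2 SD over the arrays of 0.39, close to that of 0.40 in the bright ones, but a wider spread between duplicate spots, 0.30 against 0.12.

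**Figure D4:**
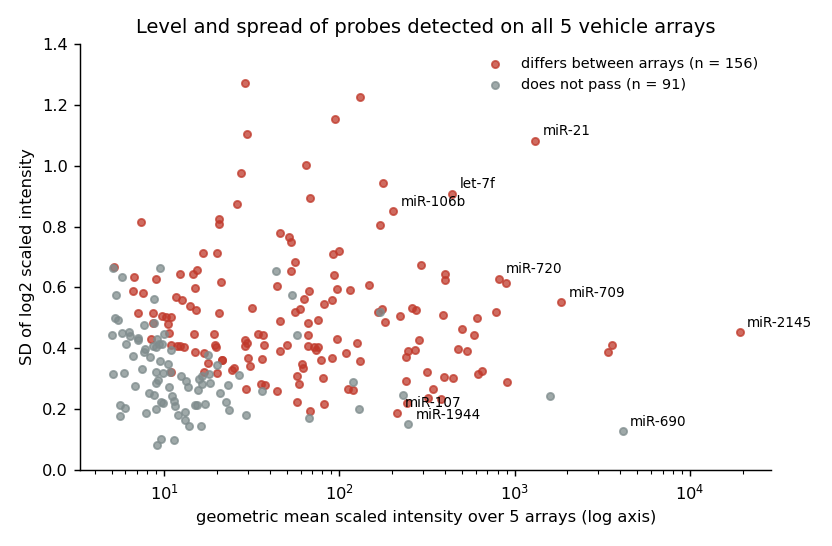
SD of log2 scaled intensity over the 5 vehicle arrays (vertical axis) against geometric mean scaled intensity (horizontal log axis) for the 247 probes detected on all 5 arrays; red points passed limma's F-test between arrays at an adjusted p under 0.05 and grey points did not. The 156 red points span the whole range of intensity, and most grey points lie at the dim end.

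The 6 bright probes that did not pass were miR-690 (adjusted p = 0.168, limma), miR-1944 (0.112), miR-2137 (0.0903), miR-711 (0.324), miR-24 (0.28) and miR-22 (0.186). The spread of the duplicate spots was 1.13 on the log2 scale in miR-22 and 0.40 in miR-24, against a median of 0.12 in the bright probes. It was also above that median in miR-711 (0.30) and miR-2137 (0.24), but not in miR-690 (0.12) and miR-1944 (0.095). The 8 bright probes with the smallest log2 SD were miR-690, miR-1944, miR-107, miR-711, miR-103, miR-15b, miR-326* and miR-2137, from 0.13 to 0.24. miR-1944 read 230, 286, 263, 221 and 241 units and miR-326* read 277, 340, 298, 411 and 282 units. The 8 with the largest were miR-21 (1.08), let-7f (0.91), miR-106b (0.85), miR-1937c, miR-16, miR-720, miR-30a and miR-1195 (0.62). miR-1937c read 182, 186, 327, 545 and 360 units.

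Which probes appear steady depends on the scale. When the arrays were scaled to the spike controls, a setting chosen after seeing the data, only 1 of the 8 steadiest probes remained among the 8 steadiest, and the log2 SD of miR-690 was 0.72. Normexp background correction with quantile normalization kept 2 of these 8, with 0.22 for miR-690. The authors' normalized values kept 1 of these 8, with 0.51 for miR-690. By contrast miR-21 kept the largest log2 SD of the bright probes under each of these settings, from 0.83 to 1.79. It ranked 2 (0.86) when the arrays were scaled to the listed bright probes, another setting chosen after seeing the data.

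The bright probes were divided into the 28 that belong to the 10 lists of well-described miRNAs and the 19 outside the lists, such as miR-2145, miR-709 and miR-2861. On the scaled values the medians of the 2 sets had opposite signs in replicates 1, 2 and 4. In replicate 1 the median deviation from a probe's own mean was 0.41 on the log2 scale for listed probes and -0.35 for unlisted ones. In replicate 4 it was -0.39 for listed probes and 0.35 for unlisted ones, and in replicate 2 it was -0.29 and 0.15. In replicate 3 it was above 0 in both sets, with 0.28 and 0.09, and replicate 5 lay near 0, with 0.01 and -0.06. Scaling every array to a common median favours opposite signs. The highest array was replicate 1 for 20 of the 28 listed probes and for none of the 19 unlisted ones.

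**Figure D5:**
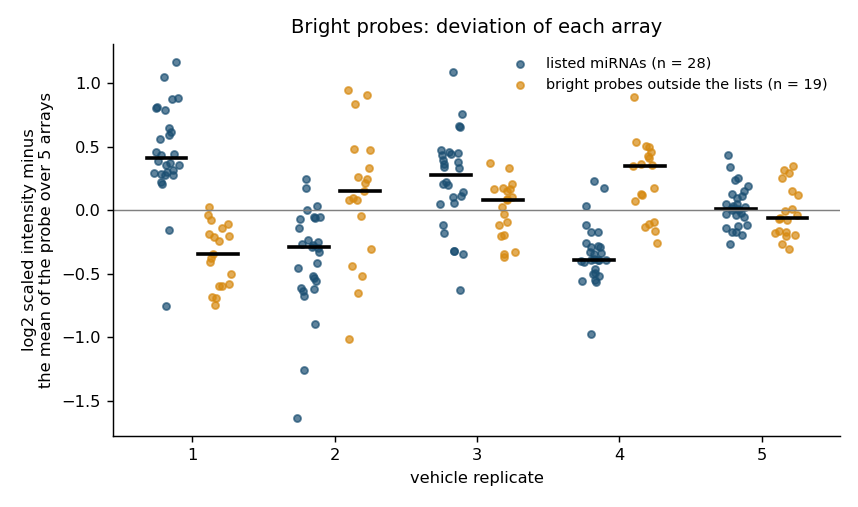
Deviation of each array from the mean of the probe over the 5 vehicle arrays, in log2 scaled intensity, for 28 bright listed miRNAs (blue) and 19 bright probes outside the lists (orange); each point is a probe and each black line a median. The blue median is above the orange one in replicates 1, 3 and 5 and below it in replicates 2 and 4.

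Before scaling, both sets moved together, highest in replicate 1 and lowest in replicate 2, but by unequal amounts. The median intensity of the listed bright probes was 626, 106, 300, 129 and 181 units in replicates 1 to 5, and that of the unlisted ones was 667, 226, 489, 371 and 319 units. The listed probes were 2.56 to 19.1-fold brighter in replicate 1 than in replicate 2, with a median of 6.50-fold, against a median of 2.87-fold and a range of 1.13 to 6.11-fold for the unlisted ones. The listed probes gave 36.8%, 14.8%, 25.8%, 16.2% and 21.1% of the summed bright signal in replicates 1 to 5. Over all 247 probes the median ratio of replicate 1 to replicate 2 was 5.37 for 100 listed probes and 2.34 for 147 unlisted ones. The sets were defined with earlier results of these data known, so no test was made. The part that RNA quantity, RNA quality or labelling played in this difference was not tested.

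Of 321 pairs of a strand and its asterisk partner, 25 had both strands detected on all 5 arrays, 96 only the unmarked strand, 24 only the asterisk strand and 176 neither. An unmarked strand with several asterisk partners, such as let-7f or miR-16, counts once in each of its pairs, so pairs outnumber unmarked strands. No pair had both strands bright, 33 had a bright unmarked strand and 7 a bright asterisk strand. In 4 of these 7, miR-326*, miR-3102*, miR-677* and miR-3090*, the unmarked strand was not detected on all arrays. miR-677* read 157, 397, 218, 185 and 213 scaled units, highest in replicate 2, while miR-677 was detected on no array. Before scaling, miR-677* was highest in replicate 1, with 208 intensity units against 150 in replicate 2. In the other 3 the unmarked strand was dim, with geometric means of 12.4 units for miR-149 against 476 for miR-149*, 9.45 for miR-328 against 284 for miR-328*, and 18.1 for miR-92b against 344 for miR-92b*. Since the 2 strands have different probes, these values do not measure the ratio of the strands. miR-211* behaved likewise at 90.8, 123, 105, 145 and 102 units, while miR-211 was detected on none.

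Hairpins that lie close together are often cut from 1 transcript. RefSeq places 20 groups of at least 3 hairpins with probes, matched by name, within 10 kb of each other. A mature miRNA made at several loci counts at each. Some hairpins whose RefSeq name differs from that on the array went unmatched and are not counted, such as those of miR-18a, miR-92a and miR-743a. In 5 groups every hairpin with a probe had a strand detected on all 5 arrays, namely let-7d, let-7f-1 and let-7a-1; miR-25, miR-93 and miR-106b; miR-182, miR-96 and miR-183; miR-429, miR-200a and miR-200b; and miR-99b, let-7e and miR-125a. In 4 groups no hairpin had. Among them were the miR-302 and miR-367 group of embryonic stem cells and the miR-449 group of multiciliated cells. Another was the group of miR-764, miR-1912 and miR-1264. The last was an X-linked group that includes miR-743b and is known from testis. Its 16 hairpins matched to probes gave no detection on any array. Of the 36 hairpins matched to probes between miR-379 and miR-3072, in the imprinted Dlk1-Dio3 region, 3 passed on all 5 arrays, and 22 failed on every array. In the other 11 groups some hairpins had a strand detected on all 5 arrays. In the repetitive group of miR-466, miR-467, miR-669 and miR-297 hairpins, 22 of 66 passed on all 5 arrays and 8 failed on every array. The near-identical copies there share mature sequences and cannot be told apart. A hairpin passes when any of its probes passes, so the shares of all mouse probes given above are no background for these counts. No share over all hairpins was computed.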

How the data were processed

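The deposited array files give for each spot a raw intensity and the authors' values. As the deposited column note states, the authors took the mean of the blanks off each spot, called spots above that mean plus 2 SD positive, averaged positive duplicates and scaled each array to a median of 25. The lowest spot kept lay 1.35 to 1.50 SD above the mean of the unflagged blanks, and 5.14% to 6.56% of blanks lay above it. From the raw intensity and the authors' background, means of duplicate spots were computed and scaled as described, leaving out flagged spots (0 to 2 per array). Differences between arrays were tested on log2 spot values with limma 3.58.1 in R 4.3.3 (lmFit, eBayes with trend, moderated F-test), a procedure tested on simulated data. Tables were made with Python 3.11.15 and pandas 2.3.3. miRNA names are those of the files, in older nomenclature, and the files name no genome build, so no coordinates are given. The miRNAs named were the 20 brightest, the 8 most and 8 least variable bright probes, 3 on either side of the bright limit, up to 4 per list, shared seeds and strand pairs. Others were chosen after their values were seen. The members and the lists were chosen with earlier results of these data known. Alternatives were other thresholds, scalings and normalizations, and each replicate left out in turn.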

Additional observations from a re-analysis of the deposited data

Results flagged for a closer look

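For 79 sets of 5 values, which were the named probes on the log2 scale and 4 measures of the arrays, the gap between the highest or lowest array and its nearest neighbour was taken as a share of the whole range. This share passed Dixon's 95% limit of 0.71 for 5 samples in 2 probes, and chance gives about 1 in 20. For miR-200a the share was 0.823. Replicate 1 read 220 scaled units, where its spots read 227 and 213, against 65.8 to 81.5 units on the other arrays. In replicate 4 the 2 spots of miR-200a differed, at 99.2 and 32.4 units. For miR-2861 the share was 0.788. Replicate 4 read 1290 units, with 1213 and 1367 in its spots, against 796 to 882 units on the other arrays.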

How the results depend on the processing

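No paired analysis was possible because only the vehicle group was described and no groups were compared. The number of probes detected on all 5 arrays was 131 at a threshold of the blank mean plus 6 SD, against 247, and the number detected on none was 789 there and 154 where 1 positive spot was enough, against 467. The other thresholds, among them the blank mean plus 2 SD recomputed from all unflagged blanks (216 and 569), a setting chosen after seeing the data, moved both counts by less than 1.5 times. The 47 bright probes became 95 in the authors' normalized column, 27 without scaling and 29 at a limit of 200. The median CV of the bright probes, 26.9%, was 47.2% in the authors' column, 51.1% without scaling, 21.9% after normexp background correction with quantile normalization and 60.6% with scaling to the spike controls, the last chosen after seeing the data. Testing the bright probes alone called 41. Leaving out each replicate in turn gave 247 to 300 probes detected on all remaining arrays, 470 to 525 on none, 47 to 64 bright probes, a median CV of 22.0% to 30.6% and 122 to 157 probes that differed between arrays. The highest counts of detected and bright probes, 300 and 64, came without replicate 2. The F-test called 134 to 220 probes under the other scalings. Signals of the dim probes are limited by their closeness to the background, where viral probes were detected too.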
